A study of Mus musculus with 8 samples.

Results

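The genes described here are Bmp4, its receptor, 2 SMAD proteins of its pathway, and genes that BMP signals are known to act on: Bmp4, Bmpr1a, Smad1, Smad6, Id1, Id2, Id3, Msx1, Msx2 and Gata2. They are 10 of the 19938 genes tested on these arrays, were picked by name from the gene symbols of the array platform, and each had 1 probe set. RNA came from CGR8, a feeder-independent mouse embryonic stem cell (ESC) line labelled with background strain C57BL/6 and donor strain 129P2/OlaHsd, and was hybridised to Affymetrix mouse gene arrays. There were 4 groups of 2 arrays each. WT ESCs at day 0 and PML KD ESCs at day 0 were grown in serum with LIF, and WT embryoid bodies (EBs) at day 4 and PML KD EBs at day 4 had been differentiated without LIF, first as hanging drops for 2 days and then in suspension. PML KD cells stably expressed a hairpin RNA (shRNA) against Pml from the lentiviral vector pLKO.1 and were selected with puromycin. The control is labelled WT, and the sources used here do not say whether it carried the empty vector or was exposed to puromycin. No label says that a group's arrays stem from separate cultures, so each p-value measures the spread between these arrays, which may be technical.

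BMP4 is a secreted ligand of the TGF-beta superfamily. It binds a complex of type I receptors, such as BMPR1A, and type II receptors, in which the type I receptors phosphorylate SMAD1, SMAD5 and SMAD9. These SMADs join SMAD4, enter the nucleus and act on target genes, while SMAD6 inhibits the pathway and is itself induced by it. The Id genes are among the most direct targets. ID proteins lack a DNA-binding region and hold basic helix-loop-helix (bHLH) factors inactive, and in mouse ESCs grown with LIF they are known for holding back neural differentiation, while in differentiating cells BMP4 is known for promoting mesoderm, extraembryonic and surface ectoderm fates. PML is the scaffold protein of nuclear bodies, and the series asks about its part in pluripotency.

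Id1, Id2 and Id3 were all lower in PML KD at day 0 and higher at day 4. Bmp4 did not move with them at day 0. No window was matched to Id1, so those before the transcription starts of Id2, Id3 and Bmp4 are shown. Each is the 250 bases upstream of the start, read 5′ to 3′ along the gene, from RefSeq on GRCm38.p6. Capitals mark the letters GGCGCC, a GC-rich motif described for SMAD1 and SMAD5, and GTCT or its complement AGAC, the SMAD box. Id2 lies on the minus strand and its window is chr12:25096093-25096342, Id3 lies on the plus strand with the window chr4:136143572-136143821, and Bmp4 lies on the minus strand with the window chr14:46390670-46390919.
Id2: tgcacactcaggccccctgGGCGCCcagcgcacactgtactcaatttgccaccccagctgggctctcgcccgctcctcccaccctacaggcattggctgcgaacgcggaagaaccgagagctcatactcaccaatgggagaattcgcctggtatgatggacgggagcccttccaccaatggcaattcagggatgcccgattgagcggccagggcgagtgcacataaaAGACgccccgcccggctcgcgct
Id3: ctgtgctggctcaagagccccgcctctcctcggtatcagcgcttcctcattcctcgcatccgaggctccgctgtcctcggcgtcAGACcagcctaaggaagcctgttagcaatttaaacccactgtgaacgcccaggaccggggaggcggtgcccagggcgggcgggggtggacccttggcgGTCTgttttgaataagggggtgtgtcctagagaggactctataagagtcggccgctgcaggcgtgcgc
Bmp4: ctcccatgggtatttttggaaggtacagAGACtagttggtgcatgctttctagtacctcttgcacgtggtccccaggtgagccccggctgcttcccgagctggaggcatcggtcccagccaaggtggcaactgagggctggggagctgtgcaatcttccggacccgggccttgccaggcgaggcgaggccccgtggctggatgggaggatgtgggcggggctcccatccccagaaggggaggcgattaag

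The Id2 window held GGCGCC 1 time, beginning 231 bases before the start, and AGAC 1 time, beginning 23 bases before it. The Id3 window held AGAC and GTCT 1 time each, beginning 166 and 68 bases before the start, and no GGCGCC. The Bmp4 window held AGAC 1 time, beginning 222 bases before the start. Of 32851 mouse promoter windows of the same length, 9.59% held GGCGCC and 82.9% held GTCT on either strand, so the SMAD box is present in most windows. Windows were matched for 9 of the 10 genes, all but Id1, with 2 for Gata2. GGCGCC was found in those of Id2, Bmpr1a and the second of Gata2. CANNTG, the E-box that bHLH factors bind, stood in the windows of Bmp4, Id2, Msx1 and Msx2 and in 66.2% of all windows. TTCNNNGAA, the motif of STAT factors downstream of LIF, stood in none of the 10 windows and in 7.02% of all. Matches are letters in a window and were not tied to any binding data.

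Pml, the knockdown target, had log2 signals of 11.70 and 11.68 in WT ESCs and 11.10 and 11.07 in PML KD ESCs, while the EB arrays read 10.88 and 10.84 for WT and 10.54 and 10.69 for PML KD. It was lower in PML KD at both days. Its call at day 4 (limma adjusted p in the fit to all arrays under 0.05) was lost with array medians made equal (adjusted p = 0.246). The call was also lost in a limma fit to the arrays of that day alone (adjusted p = 0.083) and with a replicate block (0.0614). With any 1 of the 8 arrays left out it was lost too (differences from -0.315 to -0.172). Pou5f1, a defining pluripotency factor, was at 13.35 and 13.36 in WT ESCs and at 12.65 and 12.80 in PML KD ESCs. On the EB arrays it was at 12.00 and 11.99 in WT and at 11.79 and 11.72 in PML KD. At each day both PML KD arrays thus lay below both WT arrays. Both PML KD arrays of day 0 stood apart from the other 6 in Y-linked genes: Eif2s3y was at 4.95 to 5.20 against 9.86 to 10.20, and Uty at 5.40 to 5.77 against 9.03 to 9.38. Y-linked Kdm5d lay between 5.42 and 5.85 on all 8 arrays and did not separate them. The labels do not say whether the PML KD arrays of both days came from the same infected line. The part of this difference in every comparison that uses these arrays was not tested. Array medians ran from 169 to 199 in linear intensity. The small number of arrays limits the precision.

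At day 0 the 3 Id genes were lower in PML KD ESCs than in WT ESCs, by 1.90-fold for Id1, 4.55-fold for Id2 and 2.25-fold for Id3, while Bmp4 itself lay between 11.23 and 11.31 on all 4 arrays. Smad1 fell slightly, and Bmpr1a and Gata2 rose slightly. In all, 6 of the 10 genes passed (2 higher, 4 lower), against 52.3% of all genes tested in this comparison (27.5% higher and 24.9% lower), so the number of genes that passed is near the background and the sizes are what can be described. Their median difference was 0.03 and that of all genes 0.09 on the log2 scale. Brighter genes had another baseline: the median was -0.14 over the autosomal genes above the median of mean signal. Bmp4, Bmpr1a, Smad1 and the Id genes are among them. In bulk samples, fewer cells that express a gene and less RNA of it per cell cannot be told apart.

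Bmp4, the ligand, had log2 signals of 11.23 and 11.28 in WT ESCs and 11.24 and 11.31 in PML KD ESCs. The groups overlapped, and the difference of 0.02 ± 0.07 (SE, n = 2 arrays per group) did not pass in limma (adjusted p = 0.808, 95% interval -0.14 to 0.19). Its direction depended on the scaling: the difference was 0.19 after quantile normalization (adjusted p = 0.0472), -0.20 with array medians made equal (adjusted p = 0.0526) and 0.42 in the authors' other table, of values over constitutive exons (adjusted p = 0.00443).

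Bmpr1a, the type I receptor, was at 10.06 and 10.25 in WT ESCs and at 10.45 and 10.47 in PML KD ESCs. Both knockdown arrays lay above both WT arrays, and the rise of 0.31 ± 0.08 passed (adjusted p = 0.013). It did not pass with equal medians (0.09, adjusted p = 0.442) or without WT replicate 1 (0.22, adjusted p = 0.0979). Smad1, which carries the signal to the nucleus, was at 8.55 and 8.70 in WT and at 8.35 and 8.28 in PML KD, lower on both knockdown arrays. It fell by 0.31 ± 0.08 (adjusted p = 0.0105), a call that ended without WT replicate 2 (adjusted p = 0.0847) and in the constitutive-exon table, where the difference was 0.05 (adjusted p = 0.663). Smad6, the inhibitor, was at 7.35 and 7.52 in WT and 7.70 and 7.35 in PML KD, with the groups overlapping and a difference of 0.09 ± 0.13 (adjusted p = 0.572). In the constitutive-exon table its difference was 0.94 (adjusted p = 0.00505), so the tables differ for this gene.

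Id1 had log2 signals of 9.75 and 9.78 in WT ESCs and 8.76 and 8.92 in PML KD ESCs, and fell by 0.93 ± 0.08 (adjusted p = 4.33e-05). Id2 had 9.69 and 9.79 in WT and 7.48 and 7.63 in PML KD, and fell by 2.19 ± 0.09 (adjusted p = 3.59e-06). Id3 had 8.51 and 8.60 in WT and 7.39 on both PML KD arrays, and fell by 1.17 ± 0.08 (adjusted p = 1.5e-05). For each Id gene both knockdown arrays lay below both WT arrays by more than the spread within either pair, while 76.7% of all genes had groups that did not overlap. The fitted difference of Id2 was the 27th lowest of the 19938 genes. All 3 passed under each of 15 alternatives of scaling, filter, source table, fit or left-out array, with differences from -1.15 to -0.46 for Id1, from -2.41 to -2.11 for Id2 and from -1.62 to -1.12 for Id3.

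Msx1 and Msx2, homeobox genes that BMP signals induce in many embryonic tissues, did not pass at day 0. Msx1 was at 7.55 and 7.76 in WT and 8.02 and 7.72 in PML KD (0.21 ± 0.14, adjusted p = 0.227), and Msx2 at 6.68 and 7.01 in WT and 6.92 and 6.87 in PML KD (0.04 ± 0.12, adjusted p = 0.767). For both, the 2 groups overlapped. Gata2, a transcription factor of blood and trophoblast cells, was at 6.57 and 6.68 in WT and 6.91 and 7.20 in PML KD, with no overlap. It rose by 0.43 ± 0.12 (adjusted p = 0.0177), but the call was lost after quantile normalization (0.17, adjusted p = 0.331), with equal medians (0.20, adjusted p = 0.204), in the constitutive-exon table (0.42, adjusted p = 0.0666) and without WT replicate 1 (adjusted p = 0.0834) or PML KD replicate 2 (adjusted p = 0.102).

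**Figure D1:**
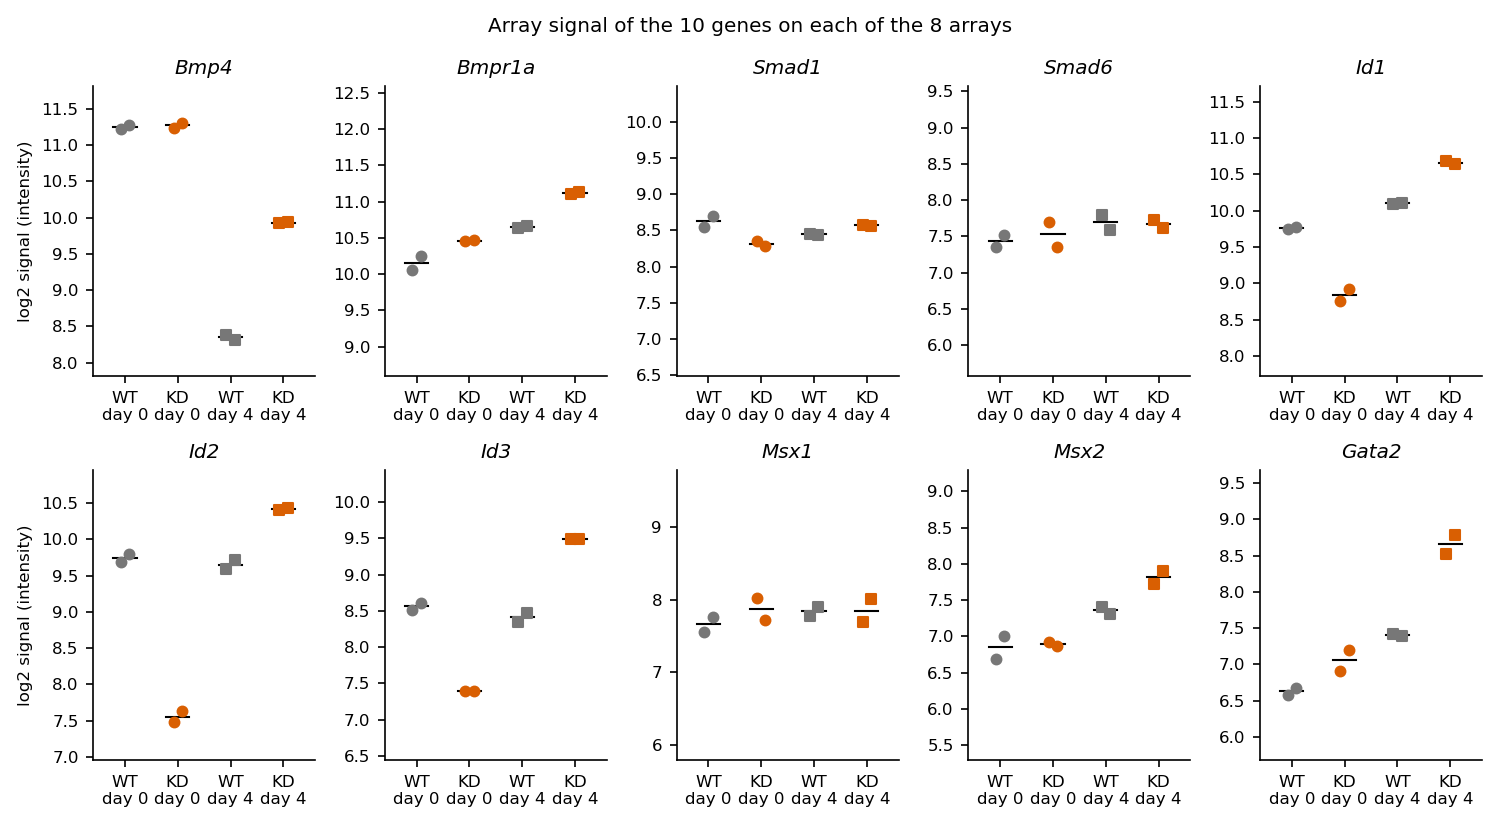
Log2 signal (vertical axis, log2 of linear intensity, 4 log2 units high in every panel) of the 10 genes on each of the 8 arrays. Points are single arrays, circles at day 0 and squares at day 4, and bars are the means of the 2 arrays; Id1, Id2 and Id3 are lowest in PML KD at day 0 and highest in PML KD at day 4, and Bmp4 is lowest in WT at day 4.

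At day 4 the Id genes were on the other side of WT: Id1, Id2 and Id3 were 1.47-fold, 1.70-fold and 2.12-fold higher in PML KD EBs than in WT EBs. Bmp4 was 2.99-fold higher and Gata2 2.38-fold higher, with smaller rises of Bmpr1a and Msx2. In all, 7 of the 10 genes passed and all 7 were higher, against 28.6% of all genes passing in either direction with 16.8% higher and 11.8% lower. The median difference of the 10 genes was 0.52, and that of all genes -0.02. Over the autosomal genes above the median of mean signal it was 0.08. The call count was 7 as well in a fit to the 4 arrays of day 4 alone, which leaves out the day 0 arrays that stood apart in Y-linked genes. Pml itself did not pass in that limma fit (adjusted p = 0.083).

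Bmp4 was at 8.38 and 8.32 in WT EBs and at 9.92 and 9.94 in PML KD EBs. The knockdown arrays lay far above the WT arrays and still below every ESC array. The rise was 1.58 ± 0.07 (adjusted p = 1.08e-05), the 42nd highest of the 19938 genes. Bmpr1a was at 10.64 and 10.66 in WT and at 11.11 and 11.13 in PML KD and rose by 0.47 ± 0.08 (adjusted p = 0.00351), a call lost in the constitutive-exon table (0.14, adjusted p = 0.409).

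Neither SMAD passed between the EB groups. The Smad1 signals were 8.45 and 8.43 for WT and 8.57 and 8.56 for PML KD, with no overlap, and the difference of 0.12 ± 0.08 did not pass (adjusted p = 0.277, 95% interval -0.06 to 0.30). Smad6 was at 7.80 and 7.60 in WT and 7.73 and 7.62 in PML KD, with the knockdown arrays between the WT arrays and a difference of -0.02 ± 0.13 (adjusted p = 0.915).

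Id1 was at 10.09 and 10.11 in WT and 10.69 and 10.64 in PML KD, and rose by 0.56 ± 0.08 (adjusted p = 0.00141). Id2 was at 9.59 and 9.72 in WT and 10.41 and 10.44 in PML KD, and rose by 0.77 ± 0.09 (adjusted p = 0.000481). Id3 was at 8.35 and 8.47 in WT and 9.49 on both PML KD arrays, and rose by 1.08 ± 0.08 (adjusted p = 5.95e-05). In all 3 the groups did not overlap, which 65.2% of all genes shared in this comparison. Id2 and Id3 passed under all 15 alternatives, and Id1 under 14, with a difference of 0.28 in the constitutive-exon table (adjusted p = 0.0638).

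Msx1 overlapped between the EB groups and did not pass, at 7.78 and 7.90 in WT and 7.69 and 8.01 in PML KD (0.01 ± 0.14, adjusted p = 0.965). Msx2 was at 7.41 and 7.31 in WT and 7.73 and 7.91 in PML KD, with no overlap, and rose by 0.46 ± 0.12 (adjusted p = 0.0203). The Msx2 call ended without replicate 2 of WT (adjusted p = 0.0962) or of PML KD (adjusted p = 0.125). Gata2 was at 7.42 and 7.39 in WT and 8.52 and 8.79 in PML KD, and its rise of 1.25 ± 0.12 (adjusted p = 0.000239) passed under all 15 alternatives.

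**Figure D2:**
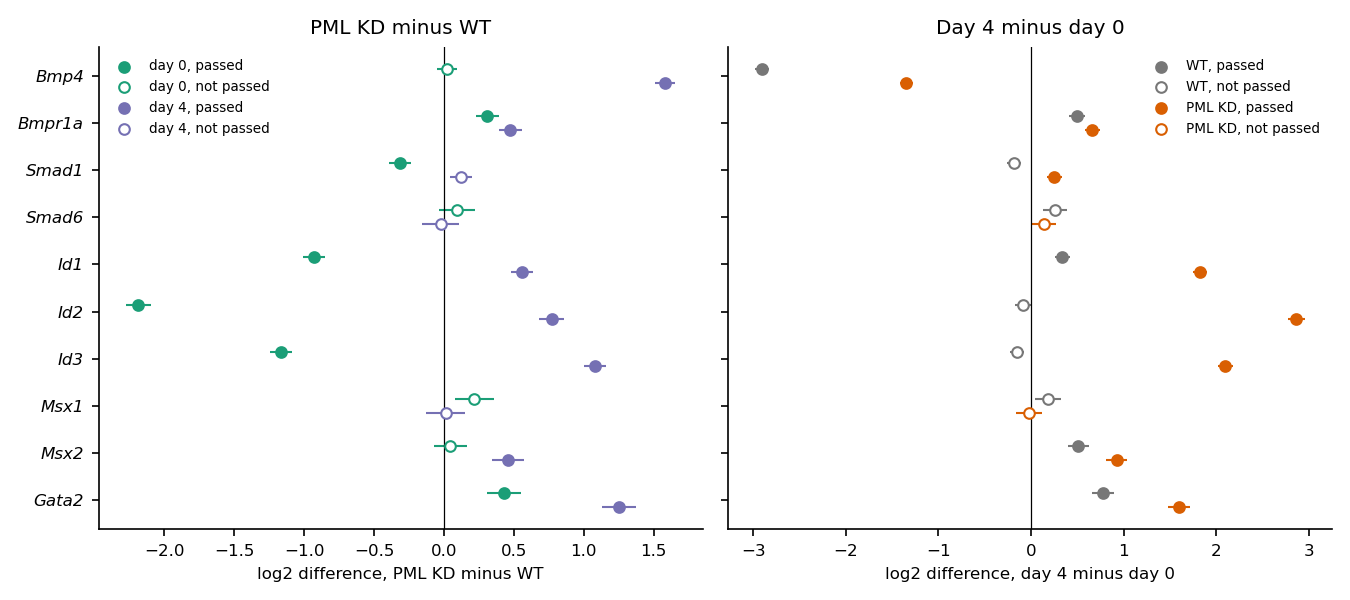
Log2 difference between PML KD and WT at each day (left) and between day 4 and day 0 in each line (right) for the 10 genes; points are differences between means of 2 arrays, bars are the SE of the limma fit, and filled points passed the adjusted p threshold of 0.05. The Id genes lie left of 0 at day 0 and right of 0 at day 4, and in PML KD they rise over time by 1.83 to 2.87.

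The difference between the knockdown effects at the 2 days was tested as an interaction in the same fit. It passed as higher at day 4 for 6 of the 10 genes and as lower for none, against 50.6% of all genes in either direction, 25.2% as higher and 25.4% as lower. The median over the 10 genes was 0.63, and that over all genes -0.11. Over the autosomal genes above the median of mean signal it was 0.23, with the other sign. Bmp4, Bmpr1a, Smad1 and the Id genes are among those brighter genes. The part of signal level in their differences was not tested. The effect on Id2 was 2.96 ± 0.12 higher at day 4 (adjusted p = 6.95e-06), the 15th highest of all genes, and that on Id3 was 2.25 ± 0.11 higher (adjusted p = 8.85e-06). For Id1 the difference of effects was 1.49 ± 0.11 (adjusted p = 3.47e-05), and here too both effects that enter it had passed with opposite signs. For Bmp4 it was 1.56 ± 0.10 (adjusted p = 2.18e-05), and the difference at day 0 that enters it had not passed. Gata2 (0.82 ± 0.17, adjusted p = 0.0045) and Smad1 (0.44 ± 0.11, adjusted p = 0.0116) passed too. The Smad1 call turned in the constitutive-exon table (-0.11, adjusted p = 0.528).

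The interaction did not pass for Bmpr1a (0.16 ± 0.12, adjusted p = 0.264), Smad6 (-0.12, adjusted p = 0.615), Msx1 (-0.20, adjusted p = 0.41) or Msx2 (0.41 ± 0.16, adjusted p = 0.0659). Msx2 lay near the threshold and passed after quantile normalization (0.77, adjusted p = 0.00722), with equal medians (0.75, adjusted p = 0.00548), after a filter on dim genes (adjusted p = 0.0476) and without WT ESC replicate 1 (adjusted p = 0.0153). Bmpr1a passed with equal medians (0.50, adjusted p = 0.00744). Smad6 passed as lower in the constitutive-exon table (-0.86, adjusted p = 0.0267). The interaction rests on the PML KD arrays of day 0 that stood apart in Y-linked genes, and their part in it was not tested.

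**Figure D3:**
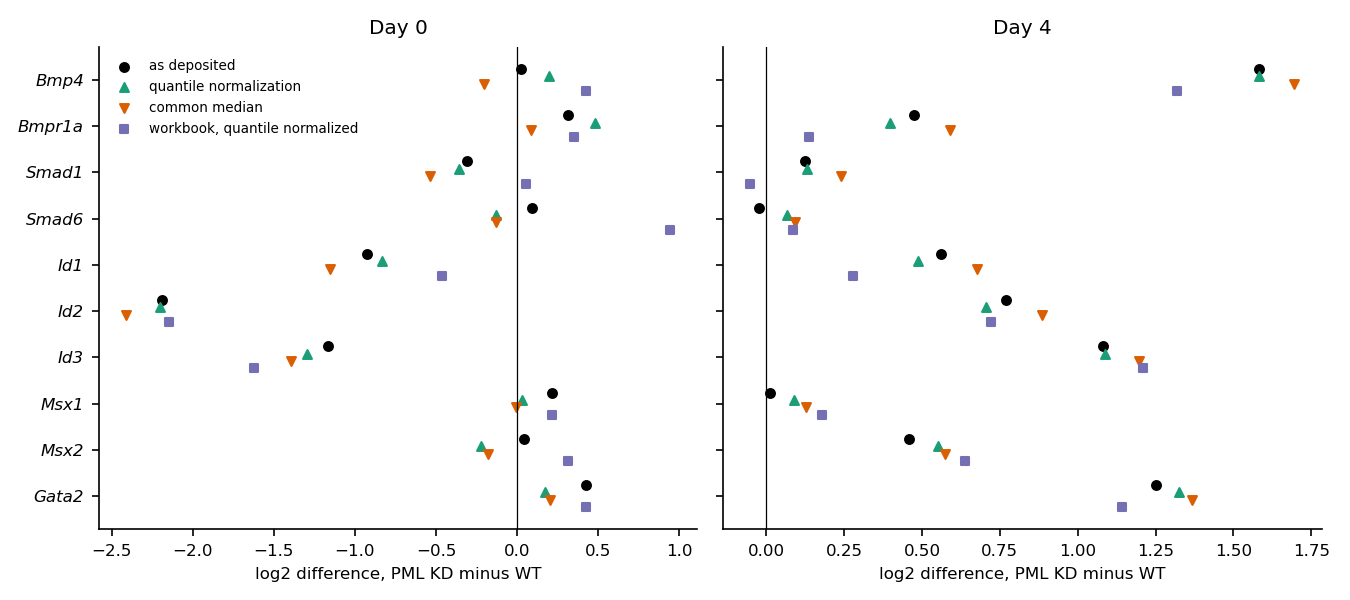
Log2 difference between PML KD and WT (horizontal axis) for the 10 genes at day 0 and day 4, from the values as deposited, after quantile normalization, with array medians made equal, and in the quantile-normalized constitutive-exon table. The 4 symbols of Id1, Id2 and Id3 lie on the same side of 0 at each day, whereas those of Smad1 and Smad6 at both days, and of Bmp4, Msx1 and Msx2 at day 0, fall on both sides.

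Between day 0 and day 4 the Id genes rose in PML KD and rose less or did not pass in WT, while Bmp4 fell in both. The PML KD comparison over time sets the day 0 arrays that stood apart in Y-linked genes against arrays that did not, so a difference between those cells and a change over time cannot be told apart in it. In WT, Bmp4 fell by 2.90 ± 0.07 from day 0 to day 4 (adjusted p = 7.08e-08), a 7.48-fold drop that was the 17th lowest difference of all genes. In PML KD, Bmp4 fell by 1.34 (adjusted p = 2.3e-06), 2.54-fold. Of the 10 genes, 5 passed in WT (4 higher, 1 lower) against 49.9% of all genes (24.3% higher, 25.6% lower). With array medians made equal, 6 passed in WT, 2 higher and 4 lower, so the balance in WT depends on the scaling. In PML KD 8 passed (7 higher, 1 lower) against 49.6% (24.3% higher, 25.2% lower). These comparisons share their arrays with the knockdown comparisons, so they restate the same signals along the time axis.

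Id2 and Id3 did not pass over time in WT (-0.09, adjusted p = 0.417, and -0.15, adjusted p = 0.136), and Id1 rose by 0.34 (adjusted p = 0.0076). With array medians made equal, where the median of all genes moved from 0.06 to -0.15, the differences of Id2 (-0.30, adjusted p = 0.0196) and Id3 (-0.36, adjusted p = 0.00422) passed and that of Id1 (0.13, adjusted p = 0.227) did not. In PML KD, Id1 rose by 1.83 (adjusted p = 7.69e-07), Id2 by 2.87 (adjusted p = 1.8e-07) and Id3 by 2.10 (adjusted p = 3.58e-07). In all 3 the group mean was lowest in PML KD at day 0 and highest in PML KD at day 4. The WT groups lay between them, with day 4 above day 0 for Id1 and not separated by the test for Id2 and Id3.

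Bmpr1a rose over time in both lines, by 0.50 in WT (adjusted p = 0.00116) and 0.66 in PML KD (adjusted p = 0.000228). Gata2 also rose in both, by 0.78 (adjusted p = 0.000846) and 1.60 (adjusted p = 1.38e-05), and Msx2 by 0.51 (adjusted p = 0.00644) and 0.92 (adjusted p = 0.000249). The Msx2 rise in WT did not pass after quantile normalization (adjusted p = 0.0774) or with equal medians (adjusted p = 0.0633). Smad1 rose in PML KD (0.25, adjusted p = 0.0267) and had a value of -0.18 in WT (adjusted p = 0.0842), which passed as lower with equal medians (-0.39, adjusted p = 0.0035). The PML KD call for Smad1 was lost without PML KD ESC replicate 2, PML KD EB replicate 1 or PML KD EB replicate 2 (adjusted p = 0.0988, 0.0992 and 0.089), and its sign turned in the constitutive-exon table (-0.29, adjusted p = 0.0287). Smad6 and Msx1 passed in neither WT nor PML KD in the deposited array values. In the constitutive-exon table Msx1 passed as higher in WT (0.70, adjusted p = 0.0205) and in PML KD (0.66, adjusted p = 0.0241), and Smad6 as lower in PML KD (-0.57, adjusted p = 0.0249). Over the 4 groups of the array values their group means spanned 0.26 and 0.22 on the log2 scale.

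The other genes of the BMP pathway were taken from a list of 78, of which 76 were measured. At day 0, 21 passed as higher and 21 as lower in PML KD, and at day 4, 23 passed as higher and 8 as lower. Over all genes 27.5% passed as higher and 24.9% as lower at day 0, and 16.8% and 11.8% at day 4, so the day 0 counts are near the background. Their median differences were 0.12 and 0.05, beside 0.09 and -0.02 over all genes. The shares of all genes that passed also stand beside the counts by role below.

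Of the 12 other ligands, 3 passed as higher and 2 as lower at day 0. Bmp2 fell (-0.47, adjusted p = 0.00325) and Gdf5 rose (0.48, adjusted p = 0.00626). The Gdf5 call was lost after quantile normalization (adjusted p = 0.108), with equal medians (adjusted p = 0.0855) and in the constitutive-exon table (adjusted p = 0.52). At day 4, 4 of 12 ligands passed as higher and 1 as lower. Bmp7, a further BMP ligand, was at 8.51 and 8.42 in WT and 9.78 and 10.12 in PML KD, and rose by 1.49 ± 0.12 (adjusted p = 9.15e-05). Bmp8b, a ligand of the extraembryonic ectoderm in the embryo, was at 8.06 and 8.17 in WT and 9.33 and 9.51 in PML KD, and rose by 1.31 ± 0.13 (adjusted p = 0.000273). Bmp4, Bmp7 and Bmp8b were thus each higher on both knockdown EB arrays than on either WT EB array.

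Among the other receptors, 8 of 9 passed as higher at day 0 and none as lower, and 4 passed as higher with either quantile normalization or equal medians. Bmpr2, the type II receptor of BMP ligands, rose from 9.82 and 9.78 to 10.63 and 10.83 (0.93, adjusted p = 8.59e-05). Eng, the co-receptor endoglin, rose from 10.56 and 10.60 to 11.30 and 11.29 (0.72, adjusted p = 7.55e-05). The same PML KD arrays thus had lower Id signals and higher Bmpr2 and Eng signals than WT. At day 4, 4 of the 9 receptors passed as higher, including Eng (0.41, adjusted p = 0.00321) and Acvr2a (0.44, adjusted p = 0.0033), but only 2 without WT EB replicate 1, WT EB replicate 2 or PML KD EB replicate 2.

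Smad4, the partner of all receptor-activated SMADs, fell at day 0 (-0.24, adjusted p = 0.0235) and rose at day 4 (0.24, adjusted p = 0.0379). Neither call is firm. That of day 0 ended after quantile normalization (-0.07, adjusted p = 0.446), in the constitutive-exon table (adjusted p = 0.169) and without any 1 array of that day (adjusted p from 0.0556 to 0.111). That of day 4 ended after quantile normalization (adjusted p = 0.0997), in the constitutive-exon table (0.073), in a fit to the arrays of that day alone (0.0719), without any 1 array of that day (0.0748 to 0.174) and without WT ESC replicate 1 or 2 (0.0626). Smad9 did not pass at day 0 (0.07, adjusted p = 0.566) or day 4 (-0.28, adjusted p = 0.0767). Of the 12 other intracellular inhibitors, 8 passed as lower and 1 as higher at day 0, and 5 passed in all in the constitutive-exon table. All 12 are bright, at percentile 63.7 of signal or higher on all 8 arrays. Autosomal genes above the median of mean signal had a median difference of -0.14 at day 0, so the share of all genes is not a like background here. Ctdsp2, a phosphatase that acts on SMADs, fell (-0.66, adjusted p = 0.000179), and the 1 that rose was Lemd3, an inner nuclear membrane protein that binds SMADs (0.92, adjusted p = 2.58e-05). At day 4 Skil, the SMAD corepressor SnoN, fell by 0.89 (adjusted p = 0.000137). Bambi, a pseudoreceptor that blocks signalling, rose (0.42, adjusted p = 0.00724), a call lost in the constitutive-exon table (adjusted p = 0.0961) and when PML KD EB replicate 2 was left out (0.0517).

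Cer1, a secreted antagonist of BMP and Nodal, was the antagonist that differed most at day 4. It was at 9.55 and 9.52 in WT and 6.97 and 7.08 in PML KD, close to the ESC arrays at 6.34 to 6.59. The fall was 2.51 ± 0.08 (adjusted p = 4.47e-06). Of the 16 measured antagonists, Cer1 included, 5 passed as higher and 2 as lower. Cer1 is also made by visceral endoderm in the embryo. In PML KD EBs 13 of 13 markers of that tissue passed as lower, against 11.8% of all genes. Their summed log2 level, the log2 of their summed linear intensities, was 15.71 and 15.68 in WT and 14.05 and 14.09 in PML KD. The brightest markers of a list weigh most in this measure. The part of this tissue in the Cer1 difference was not tested. Fstl1, a secreted follistatin-like protein, rose at day 4 (0.91, adjusted p = 0.000151) and at day 0 (0.66, adjusted p = 0.00023), but in the constitutive-exon table its differences were -0.09 (adjusted p = 0.602) and -0.13 (adjusted p = 0.355). At day 0, 5 of the 16 antagonists passed as higher, and the 1 that passed as lower was Fst, follistatin (-0.38, adjusted p = 0.00299). The number of antagonists called at day 0 was 3 after quantile normalization, without WT ESC replicate 2 or without PML KD ESC replicate 1, and 2 with equal medians.

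Of 20 further targets, 4 passed as higher and 8 as lower at day 0, near the 52.3% of all genes that passed in either direction. Junb, an AP-1 subunit induced by BMP and also by LIF, was at 8.85 and 8.76 in WT ESCs and 7.60 and 7.51 in PML KD ESCs, and fell by 1.25 (adjusted p = 1.42e-05). Tbx3, a factor that supports the ESC state, fell by 0.80 (adjusted p = 0.000146). Both fell at day 0 as the Id genes did. At day 4, 6 of the 20 passed as higher and 4 as lower, and 6 passed in all without PML KD EB replicate 1. Tfap2c was at 8.28 and 8.35 in WT and 10.05 and 9.90 in PML KD (1.66 ± 0.09, adjusted p = 2e-05). Gata3 was at 7.29 and 7.57 in WT and 9.04 and 8.96 in PML KD (1.57 ± 0.12, adjusted p = 7.45e-05).

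Tfap2c and Gata3, like Gata2, are factors of the trophoblast, and the first 2 also stand on the trophoblast marker list. Of its 11 measured markers, 10 passed as higher and 1 as lower in PML KD EBs, against 16.8% and 11.8% of all genes. The 1 that was lower was Cdx2, at 7.61 and 7.79 in WT and 7.26 and 7.35 in PML KD. The summed log2 level of the list was 13.19 and 13.23 in WT and 14.22 on both PML KD arrays. Krt8 and Krt18, its brightest markers, weigh most in that level. Of 8 fibroblast markers 4 passed as higher and 1 as lower, and their summed level was 11.47 and 11.48 in WT and 12.06 on both PML KD arrays. Of 12 blood and endothelial markers 5 passed as higher and 2 as lower (4 in all without WT EB replicate 2), with summed levels of 11.41 and 11.37 in WT and 11.59 on both PML KD arrays. No trophoblast, visceral endoderm or fibroblast marker stayed below the 25th percentile of signal throughout the 8 arrays. The 12 measured streak and mesoderm markers had 3 that passed as higher and 4 as lower, with a median difference of -0.14. For 5 epiblast markers the counts were 0 and 1, and for 7 neuroectoderm markers 2 and 2. The same shares of all genes stand beside each of these lists. The part of these cell types in the day 4 differences of Bmp4, the Id genes, Msx2 and Gata2 was not tested.

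At day 0, 7 of 12 ESC markers passed as lower and 1 as higher in PML KD, beside the fall of the Id genes and beside 24.9% of all genes lower and 27.5% higher. Their summed log2 level was 16.48 and 16.51 in WT and 16.27 and 16.30 in PML KD. These markers are bright, and autosomal genes above the median of mean signal had a median difference of -0.14 at this day. At day 4, 6 of the 12 passed as higher and 3 as lower, against 16.8% and 11.8% of all genes, beside the higher Bmp4. The summed levels were then 15.10 and 15.08 in WT and 15.33 and 15.31 in PML KD. Nanog was at 10.50 and 10.51 in WT and 11.61 and 11.69 in PML KD, whereas Sox2 was at 11.60 and 11.51 and at 11.70 and 11.60, with overlap. Pou5f1, Klf4 and Tbx3 went the other way. Their EB group means were 12.00, 8.87 and 10.77 in WT and 11.75, 8.52 and 10.20 in PML KD. What part a different share of undifferentiated cells has in the Bmp4 and Id values was not tested.

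Of the bHLH partners that ID proteins hold, Tcf12 fell at day 0 (-0.39, adjusted p = 0.00812) and rose at day 4, from 9.18 and 9.10 in WT to 9.79 and 9.80 in PML KD (0.65, adjusted p = 0.00138). The day 0 call ended without WT ESC replicate 2 (adjusted p = 0.0587) or PML KD ESC replicate 1 (adjusted p = 0.0508). Its knockdown effect therefore had the same pair of signs as that of the Id genes. Tcf4 (0.22, adjusted p = 0.0552, day 0) and Tcf3 (0.22, adjusted p = 0.0765, day 4) did not pass. Tcf4 did pass after quantile normalization (0.38, adjusted p = 0.00438), after the filter on dim genes (adjusted p = 0.0374) and with the replicate block (adjusted p = 0.0404). Tcf3 did with equal medians (0.34, adjusted p = 0.0115) and after the filter on dim genes (adjusted p = 0.0499).

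**Figure D4:**
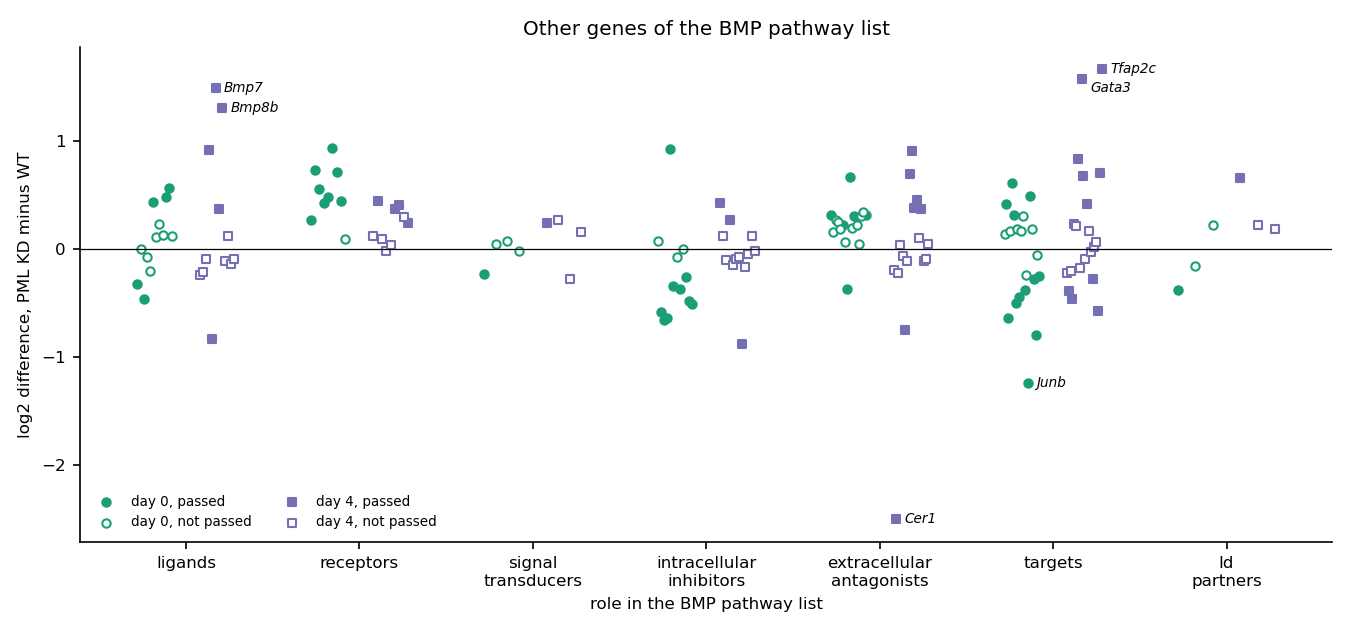
Log2 difference between PML KD and WT (vertical axis) for the 76 other measured genes of the BMP pathway list, in 7 roles, at day 0 (circles) and day 4 (squares); filled symbols passed the adjusted p threshold of 0.05. The receptors at day 0 lie above 0, the intracellular inhibitors at day 0 mostly below it, and Cer1, Bmp7, Bmp8b, Tfap2c and Gata3 stand out at day 4.

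The genes whose centred log2 profile over the 8 arrays lay nearest to that of each of 4 genes were also listed, with the root mean square difference as the measure. For Bmp4 they were St8sia1 (0.23), Jam2 (0.26) and Prdm14 (0.27). For Id1 they were Bbx (0.11), Carhsp1 (0.11) and Pkp2 (0.12), for Id2 Anxa5 (0.13), Plekhg1 (0.26) and Pdcd4 (0.27), and for Id3 Vamp3 (0.11), Rras (0.14) and Casp6 (0.17). Within the 10 genes the nearest pairs were Bmpr1a and Msx2 (0.13), Smad6 and Msx1 (0.16) and Smad1 and Smad6 (0.20), where the group means of Smad1, Smad6 and Msx1 spanned only 0.31, 0.26 and 0.22. Among the Id genes, Id1 and Id3 lay 0.22 apart, Id2 and Id3 0.43 and Id1 and Id2 0.48. With 8 arrays in 4 groups these are descriptions of 4 group means.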

How the data were processed

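RNA of 4 groups of 2 arrays was measured on Affymetrix MoGene 1.0 ST arrays. The deposited table holds linear intensity values, 1 per probe set (35556), that the authors made with the Transcriptome Analysis Console, per the submitters' processing notes. The sources used here do not state how background was corrected or arrays were normalized. A deposited workbook holds log2 values per gene over constitutive exons, per the file headers, and was used after quantile normalization; its 4 columns of group means were not used.

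These values were analysed as log2, unscaled and with nothing added. Probe sets with 1 gene symbol (21789) gave 19938 genes, with the highest mean where a gene had several. limma 3.58.1 in R 4.3.3 fitted 4 group means to all 8 arrays (lmFit and eBayes, 4 residual degrees of freedom), with 5 contrasts and Benjamini-Hochberg adjustment over all genes, threshold 0.05. Rose, fell and changed are written of genes that passed, and ± is the SE of the fitted difference. The SD of single arrays was 0.108 to 0.131 on the log2 scale. The procedure was tested on simulated data.

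Replicate numbers were not taken to pair arrays, since the labels do not say that they do. Deviations from group means correlated from -0.0821 to 0.0852 over 6 pairs of groups. The 10 genes, the pathway and marker lists and the contrasts were chosen with earlier results of these data known. The 10 genes are named whether they passed or not, and of the pathway list the 2 per role with the smallest adjusted p in each knockdown comparison. The 2 per role over time are not described, and for the interaction those that passed are given. Values of these genes given for other comparisons, and Junb, Nanog, Sox2, Pou5f1, Klf4 and Cdx2 values, serve as companions. Promoter windows came from RefSeq (GRCm38.p6). Alternatives were other scalings, the workbook, a filter on dim genes under the 25th percentile, the mean over probe sets, only the arrays compared, a replicate block and each array left out.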

Additional observations from a re-analysis of the deposited data

Results flagged for a closer look

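The knockdown effect at day 4 differed from that at day 0, by the interaction term of the limma fit, for 6 of the 10 genes, each on the log2 scale: Bmp4 by 1.56, Smad1 by 0.44, Id1 by 1.49, Id2 by 2.96, Id3 by 2.25 and Gata2 by 0.82. Among the pathway genes named by role it was higher at day 4 for the ligands Bmp5 (0.99) and Bmp7 (1.05), for Smad4 (0.48), for the receptor-binding inhibitor Fkbp1a (0.91), for follistatin, Fst (1.07), for Gata3 (2.01) and Tfap2c (1.91), and for the bHLH factors Tcf3 (0.38) and Tcf12 (1.04). It was lower at day 4 for the receptors Bmpr2 (-0.57) and Acvr2b (-0.47), for Lemd3 (-1.07) and for Cer1 (-2.66). Over all genes 50.6% passed this test, so passing it is common on these arrays. With equal array medians the values of Bmpr2 (-0.225, adjusted p = 0.187) and Acvr2b (-0.13, adjusted p = 0.42) did not pass. After quantile normalization those of Smad4 (0.245, adjusted p = 0.0771) and Tcf3 (0.12, adjusted p = 0.447) did not. Without WT ESC replicate 1, PML KD ESC replicate 1, WT EB replicate 1 or PML KD EB replicate 2, Tcf3 did not pass either (adjusted p from 0.0618 to 0.082). In the constitutive-exon table Bmp7 did not pass (1.18, adjusted p = 0.241), and Smad1 and Tcf3 had values of the other sign.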

How the results depend on the processing

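Of 740 values of the 10 genes under alternatives, 704 kept their side of the threshold (33 of these, which passed in neither setting, changed sign), 18 no longer passed, 13 newly passed and 5 turned. The 5 came from the quantile-normalized workbook: Smad1 at day 0 (0.052), in PML KD over time (-0.294) and in the interaction (-0.105), Smad6 (-0.57) and Msx1 (0.663) in PML KD over time. Among other pathway genes the workbook turned Fstl1 at day 0 (-0.134) and day 4 (-0.088), Smad9 over time in WT (-0.152) and Tcf3 in the interaction (-0.273). The cause was not tested.

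With 1 array left out, the number of all genes called at day 4 ran from 3376 to 5858 beside 5705 with all arrays, lowest without PML KD replicate 1 (3376) or replicate 2 (3535), which leaves that group 1 array assumed to vary like the others. Leaving out 1 array gave 4 to 6 of the 10 genes called at day 0, 6 to 7 at day 4, 7 to 8 in PML KD over time and 6 to 7 in the interaction.

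The scaling sets the balance of directions. Genes higher and lower at day 0 numbered 5477 and 4955 as deposited, 3379 and 5379 after quantile normalization and 2032 and 7414 with equal medians, where the median of all genes was 0.09, -0.06 and -0.14. With equal medians the split was 5028 to 1242 at day 4 (3354 to 2351 as deposited), 2243 to 7513 over time in WT (4849 to 5097) and 6290 to 3134 in PML KD (4847 to 5033). In the interaction it was 5471 to 2933 after quantile normalization and 8004 to 1547 with equal medians, beside 5034 to 5055. With the replicate block, 6, 7, 5, 8 and 6 of the 10 genes were called in the 5 contrasts, as without it, and 10347 genes in all at day 0, so the block changed no call of these genes.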

Other observations

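Bmp4 and Bmpr1a lie on chromosome 14 and Smad1 on chromosome 8. Among 9958 placed genes above the median of mean signal, the median knockdown difference at day 0 was 0.03 for the 330 genes of chromosome 14, beside -0.15 for genes elsewhere. For the 550 genes of chromosome 8 it was 0.10, beside -0.16 elsewhere, while Smad1 itself fell. At day 4 the same medians were 0.08 on chromosome 14 and 0.09 on chromosome 8, each beside 0.08 elsewhere.

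Signal ranks within arrays put the values in context. Bmp4 ran from percentile 58.4 to percentile 95.9 of all genes over the 8 arrays, Id2 from 42.2 to 89 and Id3 from 40.2 to 76.5. Smad6 lay between 40.8 and 48.9 and Msx1 between 46.6 and 54. Gata2 ran from 27.4 to 65, and Msx2 from 29.7 to 50.3, so these were the dimmest of the 10 in their lowest groups.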
